A study of Mus musculus with 12 samples.

Results

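Of 12 hippocampal mRNA libraries, 7 carried large amounts of Ttr, the transthyretin mRNA of the choroid plexus, and 5 carried little. The libraries were chosen by this 1 measured gene: at or above 1000 Ttr counts per 1000000 total expected counts (CPM) a library was called Ttr rich, and below that Ttr poor. The genes that separated the same way are described here. Because the split uses a measured value, every difference between rich and poor libraries is given as a description, with no test.

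The tissue was the hippocampus of male mice of the inbred strains C57BL/6J (B6) and DBA/2J (D2). They were adults of 3 to 5 months when injected bilaterally with virus at least 6 weeks before collection. Knockdown (KD) mice received AAV9-shRNA-Hp1bp3, a hairpin RNA against the chromatin protein gene Hp1bp3, and control (Ctrl) mice received the scrambled AAV-scrmb-shRNA, so all 4 groups of 3 mice had surgery and a viral vector. The promoter of the hairpin was not given in the sources used here. The tissue was dissected as a piece, without sorting of cells, and in bulk tissue fewer cells of a type and less RNA per cell cannot be told apart.

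The choroid plexus is a folded sheet of epithelium over a leaky vascular core that hangs into the brain ventricles, and one such sheet lies along the edge of the hippocampus. Its epithelial cells secrete cerebrospinal fluid by moving bicarbonate, chloride, potassium and water, carry folate, sulfate and metals between blood and fluid, and release transport proteins and growth factors. Ttr is among the most abundant mRNAs of these cells, whereas neurons and glia of the hippocampus are known for making little or none.

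Ttr CPM, here of the total expected counts, reached 2423 in B6 Ctrl replicate 2, 3819 and 4521 in B6 KD replicates 2 and 3, 3375 and 4634 in D2 Ctrl replicates 2 and 3, and 4437 and 4522 in the libraries labelled D2 KD replicates 1 and 3. It was 47.6 and 99.1 in B6 Ctrl replicates 1 and 3, 106 in B6 KD replicate 1, 136 in D2 Ctrl replicate 1 and 27.2 in D2 KD replicate 2. All 4 groups therefore held at least 1 library of each kind. The lowest rich library lay 17.8-fold above the highest poor library, no library fell between them, and the whole range was 170-fold. The members nearest the threshold were B6 Ctrl replicate 2 inside it and D2 Ctrl replicate 1 outside it.

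**Figure D1:**
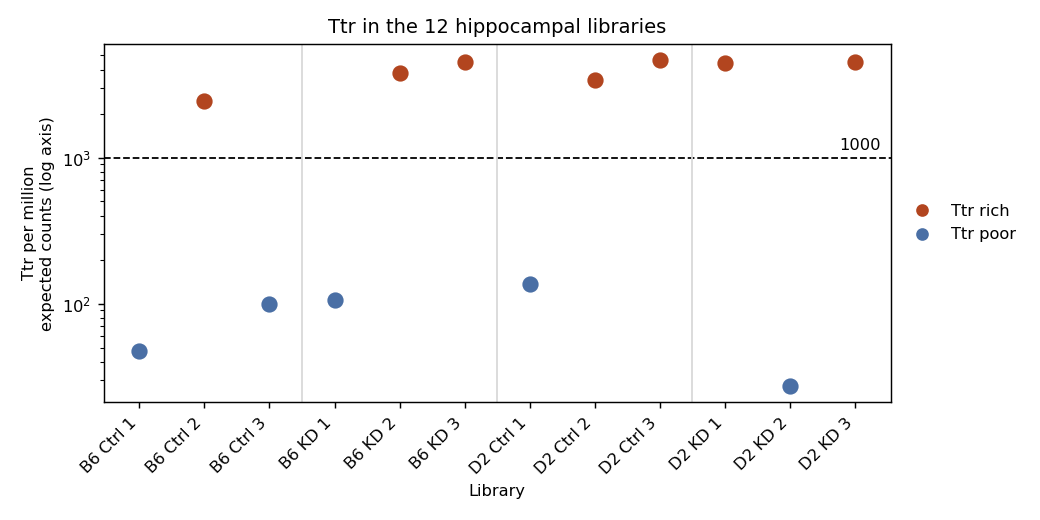
Ttr CPM of the total expected counts (log axis) in each of the 12 libraries, ordered by strain and treatment, with the threshold of 1000 dashed. The 7 rich libraries (red) lie between 2423 and 4634 and the 5 poor libraries (blue) between 27.2 and 136, and every strain and treatment group holds both.

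Rich libraries were found under every label. Of 6 KD libraries 4 were rich, against 3 of 6 Ctrl libraries (2-sided Fisher exact p = 1), and the same numbers held for D2 against B6 (2-sided Fisher exact p = 1). With 6 libraries on each side these tests cannot show balance. Within B6, 2 of 3 KD and 1 of 3 Ctrl libraries were rich. Library totals were 18.2 M to 39.4 M expected counts in rich and 33.0 M to 37.6 M in poor libraries, so the shallowest libraries were rich ones, and the part of depth was not tested. Hp1bp3, the targeted gene, was at 294 to 310 CPM, from here on scaled by TMM, in B6 Ctrl, 182 to 259 in B6 KD, 215 to 234 in D2 Ctrl and 163 to 230 in D2 KD. The library labelled D2 KD replicate 3, at 230, lay within the range of the D2 Ctrl libraries, and counts of genes called for treatment without a Ttr term are given with and without it.

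Members of the choroid plexus marker lists, 47 genes grouped by role, passed the filter on low counts in full. All 47 were on average higher in rich libraries, 43 of them at least 2-fold. At least 2-fold higher were also 2.23% of all 15853 genes tested. In 46 of the 47, every rich library lay above every poor library within each strain, against 3.15% of all genes tested that did not overlap in this direction and 0.315% in the other. The median rich minus poor log2 difference, adjusted for strain and treatment, was 3.19 for the list and -0.01 for all genes. Since Ttr and these genes come from the same libraries, nothing about their regulation is read from these counts.

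Secreted proteins formed the largest part of the signal by read number. Ttr CPM had a lowest, median and highest value of 2404, 4401 and 4568 in rich libraries and 26.9, 104 and 139 in poor ones, a log2 difference of 5.50. Enpp2, which encodes the secreted lysophospholipase autotaxin, stood at 1427, 2525 and 3172 in rich against 170, 273 and 356 in poor libraries (log2 difference 3.15). For both genes no rich library came near a poor one.

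All 11 secreted genes were at least 2-fold higher and did not overlap, with log2 differences from 2.18 to 5.50. Kl, the co-receptor and shed hormone klotho, had 171, 250 and 312 CPM in rich and 25.3, 28.8 and 39.1 in poor libraries. Igf2, an insulin-like growth factor made by choroid plexus and meninges, had 246 to 377 CPM in rich and 34.6 to 86.3 in poor libraries. The coagulation factor gene F5 (log2 difference 3.69) and the BMP and Wnt antagonist gene Sostdc1 (3.24) also separated rich from poor libraries, at lower levels. So did the protease inhibitor gene Wfdc2 (4.50).

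Several genes for ion transport were among those closest to Ttr, while others of this role were not. Slc4a5, a sodium bicarbonate cotransporter gene at chr6:83219828-83304945 (GRCm38, forward strand), had 30.3, 50.8 and 57.3 CPM in rich and 0.297, 1.25 and 1.82 in poor libraries, a log2 difference of 5.37. Clic6, of the chloride intracellular channel family, had 82.5, 136 and 176 CPM in rich and 1.79, 5.08 and 7.80 in poor libraries (log2 difference 4.74). Both were low wherever Ttr was low.

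The potassium channel genes Kcne2 (log2 difference 4.99) and Kcnj13 (4.68), the water channel gene Aqp1 (3.89), the cation channel gene Trpv4 (3.35) and the anion exchanger gene Slc4a2 (1.85) were higher without overlap. Car12, a membrane carbonic anhydrase gene, differed by 1.60 and Slc12a2, the sodium potassium chloride cotransporter gene, by 0.68, the only member of the 9 below 2-fold. Slc12a2 had 109, 120 and 159 CPM in rich and 58.7, 83.3 and 111 in poor libraries, and many hippocampal cells express it.

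Solute carriers were the most mixed role, with 7 of 10 at least 2-fold higher. Folr1, the folate receptor of the blood to fluid barrier, had 18.2, 27.1 and 38.2 CPM in rich and 0.316, 1.33 and 1.73 in poor libraries (log2 difference 4.57). The metalloreductase gene Steap1 (4.69), the lactate transporter gene Slc16a8 (3.55), the retinoid transporter gene Abca4 (3.54) and the sulfate transporter gene Slc13a4 (2.61) also stood apart. Below 2-fold were Slc29a4 (0.98), Slc22a8 (0.69) and Abcc4 (0.36), carriers of monoamines, organic anions and cyclic nucleotides. Slc22a8 was the 1 list member whose libraries overlapped, at 14.6 to 32.6 CPM in rich and 11.0 to 16.9 in poor libraries.

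All 13 structural genes of the epithelium were at least 2-fold higher. They include the tight junction genes Cldn2 (log2 difference 4.51) and Cldn1 (2.00), the keratin genes Krt18 (4.38) and Krt8 (3.52), the collagen genes Col8a1 (3.38), Col8a2 (3.19) and Col9a3 (2.12), and Sulf1, a heparan sulfate sulfatase gene (1.84). Tmem72, a membrane protein gene, had the largest difference of the list (5.65) but was uneven among rich libraries. It reached 46.1 CPM in D2 Ctrl replicate 2 and 58.7 in the library labelled D2 KD replicate 3, against 10.5 to 19.5 in the other 5 rich libraries and 0.216 to 0.650 in poor ones. Among regulators, the homeobox genes Otx2 (4.26), Lmx1a (3.07) and Msx1 (2.07) and the prolactin receptor gene Prlr (3.21) were all higher without overlap.

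**Figure D2:**
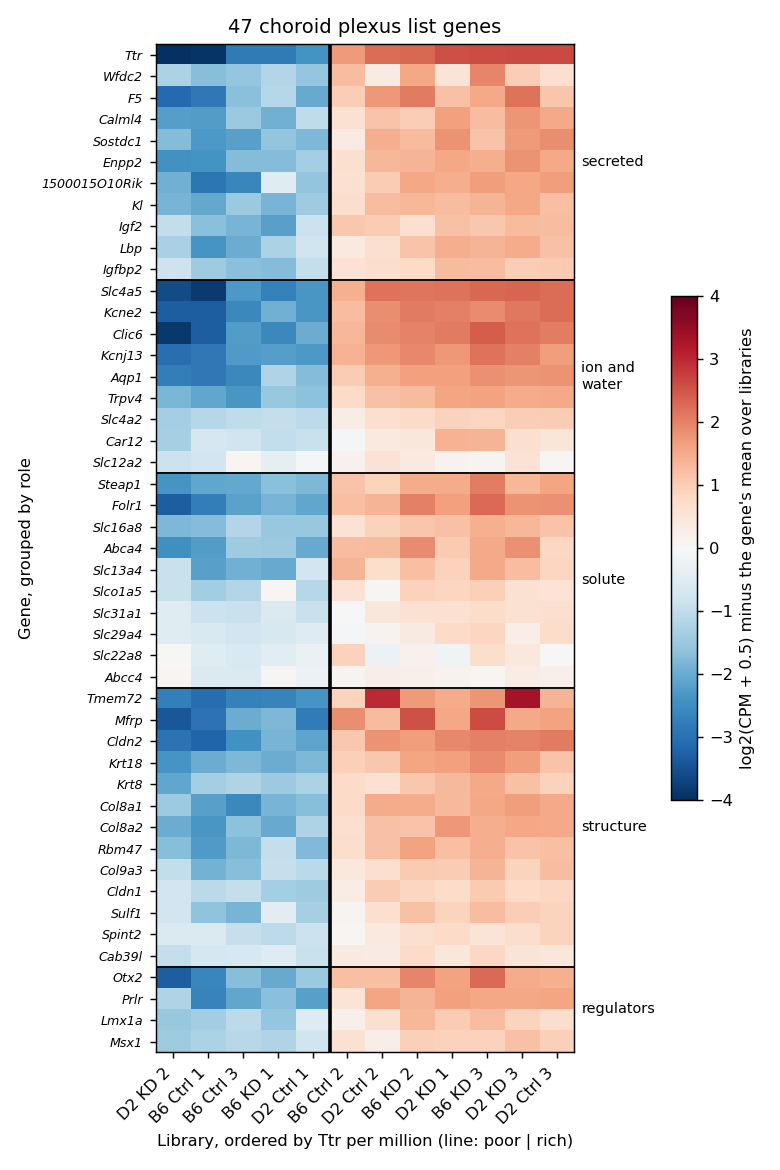
log2(CPM + 0.5) of the 47 list genes (rows, by role), each minus its mean over the 12 libraries, with libraries (columns) ordered by Ttr CPM and a line between the 5 poor and 7 rich libraries. Nearly every row changes from blue to red at that line, whereas Slc22a8 and Abcc4 stay pale and Tmem72 is darkest in D2 Ctrl replicate 2 and the library labelled D2 KD replicate 3.

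The order of libraries within each class was shared at the low end and less so at the high end. Of the 46 list genes other than Ttr, 32 had their lowest rich value in B6 Ctrl replicate 2, which also had the lowest Ttr of the rich libraries. In poor libraries, 18 had their lowest value in D2 KD replicate 2 and 16 in B6 Ctrl replicate 1, the pair of libraries with the least Ttr, yet D2 KD replicate 2 also had the highest poor value for 8 genes. The highest rich value was in B6 KD replicate 3 for 21 genes, in the library labelled D2 KD replicate 3 for 11 and in D2 Ctrl replicate 3, the library with the most Ttr, for 5.

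The ratio to Ttr varied less for some list genes than for others. Over the 12 libraries, the SD of log2((CPM + 0.5)/(Ttr CPM + 0.5)) was 0.45 for Slc4a5, 0.52 for Clic6, 0.67 for Kcne2, 0.82 for Cldn2 and 0.83 for Kcnj13. Genes with a hippocampal level of their own had larger values, such as 2.64 for Slc12a2 and 2.81 for Abcc4, and Snap25, a neuronal synapse gene, had 3.06. The points share their libraries and the Ttr denominator, and the values are descriptive.

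The same relation was read from the share of a gene's level in rich libraries that exceeded its level in poor ones. It was 97.8% for Ttr, 97.7% for Slc4a5, 89.5% for Enpp2, 87.1% for Kl, 69.3% for Car12, 36.9% for Slc12a2 and 23.7% for Abcc4. The median over the 47 list genes was 89.7%, against -0.72% over all genes tested. For Slc12a2 and Abcc4 the larger part of the level was present in poor libraries too.

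Among the genes that varied most within a strain and treatment group, choroid plexus genes took the leading places. By SD within groups of log2(CPM + 0.5), over the 14181 genes with a mean of at least 1 CPM, Ttr ranked 1, and 30 of the 50 most variable genes were in the choroid lists. For the list the median SD was 1.69, and it was 0.32 once the Ttr class was also fitted, whereas over all genes tested the median went from 0.19 to 0.18.

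Outside the lists, 197 genes were at least 2-fold higher in rich libraries and did not overlap. With the 43 list members they made 240 of the 15853 genes tested. Of the 197, 127 had a mean of at least 1 CPM over the 12 libraries, and the rest lay below that mean. Of the 240, 117 differed by a log2 of at least 2, 60 by at least 3 and 28 by at least 4. Their summed CPM was 6896 to 12184 in rich and 1088 to 1500 in poor libraries, so they took 0.690% to 1.22% of the counts of rich libraries and 0.109% to 0.150% of those of poor ones. The 197 outside the lists made up 1451 to 2109 CPM of this in rich libraries, and Ttr with the rest of the lists the remainder.

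The leading genes outside the lists, by size of difference at a mean of at least 1 CPM, were Tmprss11a, a serine protease gene (log2 difference 6.08), 1110059M19Rik (5.26), the placental cadherin gene Cdh3 (4.82), Wdr72 (4.58), the cytochrome oxidase subunit gene Cox8b (4.38) and Wdr86 (4.0). Tmprss11a was listed at 0.00 to 0.085 CPM in poor libraries and at 1.99 to 5.22 in rich ones, so its difference rests on few counts. Ace, the angiotensin converting enzyme gene, was the most abundant of the 20 so named. It had 98.8, 131 and 173 CPM in rich and 14.9, 16.3 and 20.7 in poor libraries (log2 difference 2.88).

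Several others are genes of epithelial cell contacts and membranes: the tight junction gene Tjp3 (2.73), the apical polarity gene Crb3 (2.79), the endocytic adaptor gene Epn3 (2.93) and the glucose transporter gene Slc2a12 (2.57). Further members were Tmem184a (3.96), Tc2n (3.49), Gyltl1b (3.36), Ccdc135 (3.06), Sh3rf2 (2.91), Plek2 (2.82), the carnosine dipeptidase gene Cndp1 (2.64) and the ferritin receptor gene Scara5 (2.56). Closest to Ttr by SD of the log2 ratio, among genes outside the lists at a mean of at least 1 CPM, were 1110059M19Rik (1.16), Cdh3 (1.40), Ccdc135 (1.45) and Tmprss11a (1.55). Lhb, the luteinizing hormone beta gene, was high only with the B6 background, at 2.75 to 3.99 CPM in the 3 rich B6 libraries and at most 0.42 CPM in the 4 rich D2 libraries.

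Few genes ran against Ttr. At least 2-fold lower were 23 genes, against 354 higher. Of the 23, only 1, the olfactory receptor gene Olfr31 (log2 difference -1.12, named after its value was seen), did not overlap. At a mean of at least 1 CPM the largest negative differences without overlap were small: Nppc, a natriuretic peptide gene (log2 difference -0.83), 9130024F11Rik (-0.75), Best1 (-0.67) and Ipcef1 (-0.55). Ipcef1 had 17.7, 32.04 and 39.8 CPM in rich and 39.3, 48.5 and 54.1 in poor libraries, which meet when strains are pooled and part within each strain. The other 6 of the 10 so named, 4930432K21Rik, Fanca, Fam229b, Sfxn4, Pcdhb15 and Tiam2, differed by -0.45 to -0.34.

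Other cells of the ventricle wall and its coverings were followed with their own marker lists. Of 15 ependymal cilium genes found, all were on average higher, 4 at least 2-fold and 6 without overlap, with a median log2 difference of 0.64. The axonemal gene Rsph1 had 8.22, 11.5 and 12.5 CPM in rich and 3.79, 4.37 and 5.42 in poor libraries. Foxj1, the transcription factor of motile cilia, had 13.4, 17.8 and 28.2 against 7.01, 9.57 and 14.1. The cilium list thus had a median of 0.64 beside the 3.19 of the choroid lists.

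Fibroblast and meningeal genes were followed within each strain, as the log2 ratio of mean CPM + 0.5 in rich to poor libraries. Treatments were pooled in this ratio with no adjustment. In B6 all 12 genes were higher in rich libraries, with a median difference of 1.74, and their sum was 305, 450 and 464 CPM in rich against 108, 138 and 219 CPM in poor libraries. In D2 the median difference was -0.08, with sums of 159, 235, 269 and 286 CPM in rich and 200 and 286 in poor libraries, which overlapped. Over both strains 4 of 12 were at least 2-fold higher and 1 (Foxd1) did not overlap. The 8 macrophage markers of brain borders had a median difference of 0.74 in B6 and -0.28 in D2, and none was 2-fold higher over both. Within B6 Ctrl the fibroblast sum was 450 CPM in the rich library and 108 and 138 in the poor ones, and within B6 KD it was 305 and 464 in the rich libraries and 219 in the poor one. The difference between strains was not tested.

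**Figure D3:**
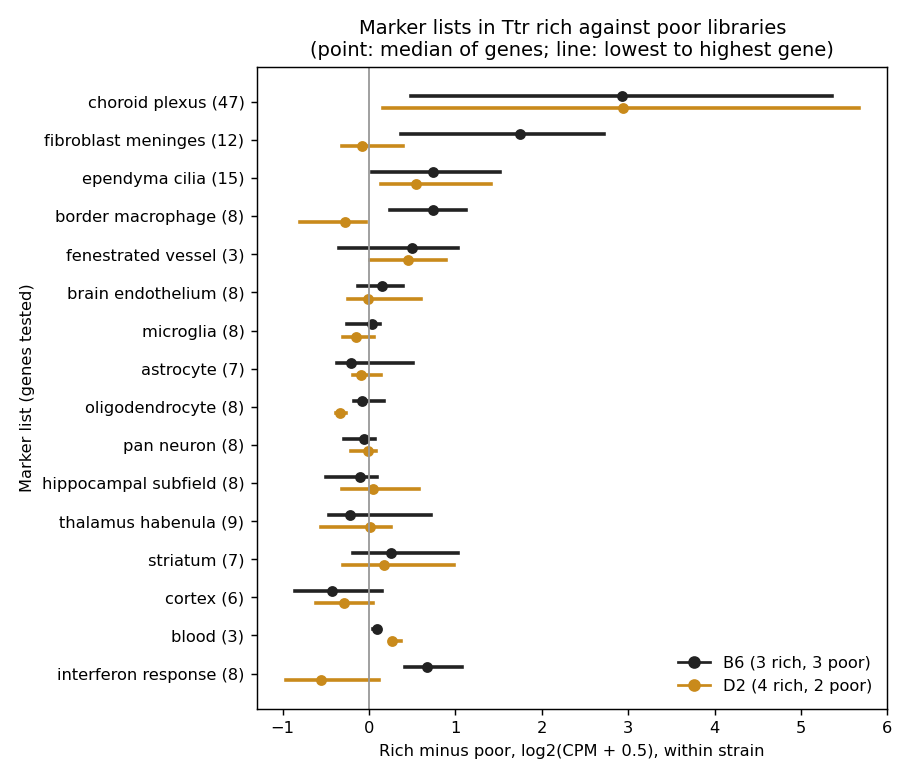
The log2 ratio of mean CPM + 0.5 in rich to that in poor libraries for each marker list, within B6 (black, 3 rich, 3 poor) and D2 (ochre, 4 rich, 2 poor). Treatments were pooled with no adjustment. Points lie at the median gene and lines run from the lowest to the highest gene. Choroid plexus lies near 2.9 in both strains (2.93 and 2.94), fibroblast and meningeal genes at 1.74 in B6 and -0.08 in D2, and the neuronal list at -0.06 and -0.01, while oligodendrocyte genes lie at -0.08 in B6 and -0.33 in D2.

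Over both strains, the median log2 differences of other lists were 0.05 for brain endothelium, -0.16 for astrocytes, -0.05 for neurons, 0.05 for hippocampal subfields, -0.08 for thalamus and habenula, 0.18 for striatum and 0.28 for blood, of which 3 of 5 genes were found. The 3 genes of fenestrated vessels had 0.56, led by Esm1 (1.90). Microglia (-0.16) and oligodendrocyte (-0.17) genes were on average lower in 8 of 8 members each, with 0 members without overlap. Within strains, with treatments pooled and no adjustment, the microglia median was 0.03 in B6, with 6 of 8 genes higher, and -0.15 in D2, with 1 of 8 higher. On the same measure the oligodendrocyte median was -0.08 in B6 and -0.33 in D2, where all 8 genes were lower.

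Interferon response genes had a median of -0.07 over both strains, adjusted for strain and treatment. Within strains, with treatments pooled and no adjustment, it was 0.67 in B6 (8 of 8 higher in rich libraries) and -0.55 in D2 (1 of 8 higher). In B6, 2 of 3 rich and 1 of 3 poor libraries were KD. The sums of the interferon genes were 65.0 to 79.0 CPM in B6 Ctrl and 400 to 1208 in B6 KD libraries, which did not overlap. In D2 they were 74.1, 74.5 and 192 CPM in Ctrl libraries and 336, 442 and 94.3 in KD libraries, the last in the library labelled D2 KD replicate 3, so that the treatments overlapped. Cortex genes had a median of -0.35, with 0 of 6 at least 2-fold lower or without overlap. Their sums of 147 to 259 CPM in rich and 241 to 283 in poor libraries overlapped. In the striatum list 1 of 7 genes reached 2-fold, Ppp1r1b (1.00), a phosphoprotein gene that choroid plexus is also known to express. The part of dissection was not tested.

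Sequence before the start site is shown for a pair of list genes because Otx2, itself in the list, is known to bind the letters TAATCC. Sequences are from RefSeq (GRCm38.p6), 250 bases upstream of the start site, and capitals mark TAATCC or its reverse complement GGATTA.
Slc4a5, chr6:83237125-83237374, forward strand: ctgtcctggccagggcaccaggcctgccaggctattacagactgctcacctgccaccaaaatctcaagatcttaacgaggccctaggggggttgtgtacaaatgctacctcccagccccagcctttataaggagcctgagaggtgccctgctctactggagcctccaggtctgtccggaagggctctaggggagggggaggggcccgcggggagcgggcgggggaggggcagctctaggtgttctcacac
Mfrp, chr9:44101520-44101769, forward strand: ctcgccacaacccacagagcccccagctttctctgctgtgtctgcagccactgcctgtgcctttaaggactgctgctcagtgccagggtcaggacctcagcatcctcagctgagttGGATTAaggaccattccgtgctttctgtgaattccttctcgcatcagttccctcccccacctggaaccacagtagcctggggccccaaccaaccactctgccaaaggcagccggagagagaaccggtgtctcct
Slc4a5 is the list gene closest to Ttr that has an entry, and it holds neither motif. Its window lies inside the gene interval given above, before a start site within the gene. Mfrp, chosen after its values were seen, holds GGATTA starting 134 bases before the start site. In windows of 250 bases before to 50 after the start, on both strands, 5 of the 37 list genes with an entry (13.5%) held TAATCC or GGATTA in at least 1 promoter, against 8.14% of all 27025 genes. With 5 genes these shares are not read further. Kcne2, Cldn2 and Kcnj13, next in likeness to Ttr, held none.

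Strain could be compared within rich libraries relative to Ttr. For each rich library, reads in excess of the mean of the strain's poor libraries were expressed per 1000 excess Ttr reads. Enpp2 gave 540 ± 43.9 (SD, n = 3) in B6 and 580 ± 56.8 (SD, n = 4) in D2, Kl 60.3 ± 6.00 and 55.6 ± 8.65, Clic6 35.9 ± 2.77 and 31.95 ± 2.38, and Slc4a5 12.8 ± 0.67 and 12.6 ± 1.45. Of 31 list genes with at least 5 such reads in both strains, 20 had a B6 to D2 ratio between 0.8 and 1.25, with a median of 1.10. The other list genes did not reach 5 such reads in both strains and were not compared.

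**Figure D4:**
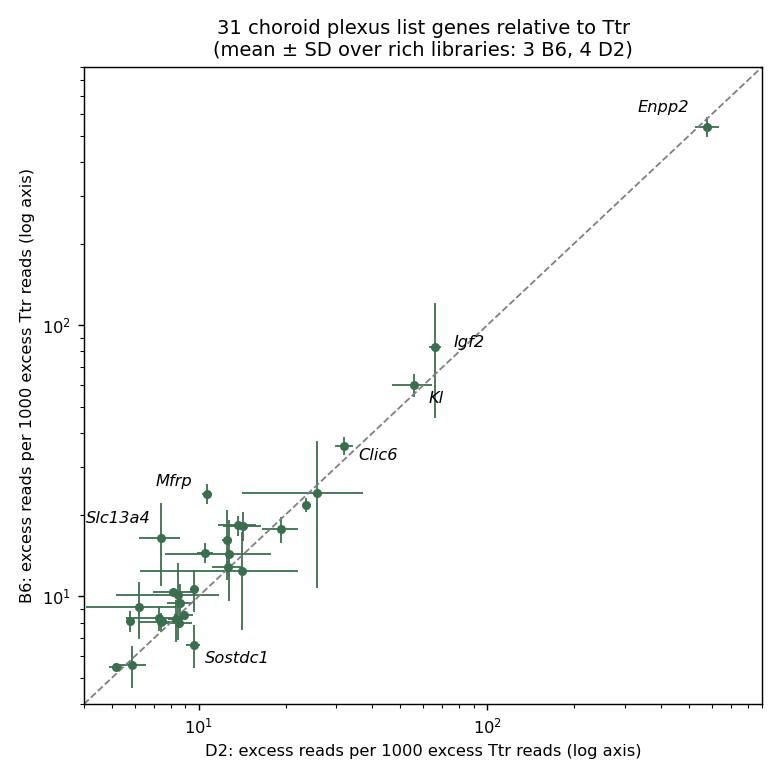
Excess reads per 1000 excess Ttr reads in B6 (vertical) against D2 (horizontal), both on log axes, for 31 list genes (mean ± SD over 3 rich B6 and 4 rich D2 libraries), with equality dashed. Most genes lie near the line, Mfrp (23.9 and 10.7) and Slc13a4 (16.5 and 7.41) above it and Sostdc1 (6.63 and 9.60) below it.

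The extremes were Sostdc1, at 6.63 ± 1.21 (SD, n = 3) in B6 and 9.60 ± 0.54 (SD, n = 4) in D2, Slc13a4, at 16.5 ± 5.55 and 7.41 ± 1.22, and Mfrp, at 23.9 ± 2.03 and 10.7 ± 0.43. Mfrp encodes a frizzled-related membrane protein and lies at chr9:44101729-44109187 (GRCm38, forward strand), and C1qtnf5, at chr9:44107245-44109187 on the same strand, is annotated within its end. Reads of this overlap can be assigned to either gene, so both were examined, C1qtnf5 after its values were seen. C1qtnf5 gave -0.11 ± 0.39 excess reads per 1000 Ttr reads in B6 and 10.7 ± 0.70 in D2.

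Mfrp had 58.9, 95.3 and 99.2 CPM in rich B6 libraries and 39.2, 46.5, 47.4 and 49.9 in rich D2 libraries. C1qtnf5 had 5.47, 6.50 and 7.59 CPM in rich B6 libraries and 47.1, 52.9, 57.2 and 59.9 in rich D2 libraries. For neither gene did the rich libraries of the strains overlap. Summed, the pair gave 23.8 ± 2.19 (SD, n = 3) excess reads per 1000 Ttr reads in B6 and 21.3 ± 1.09 (SD, n = 4) in D2. The sum was thus alike where each gene alone was not, and the reads of each strain had been aligned to that strain's own genome. Whether the transcripts differ or only their assignment was not tested.

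**Figure D5:**
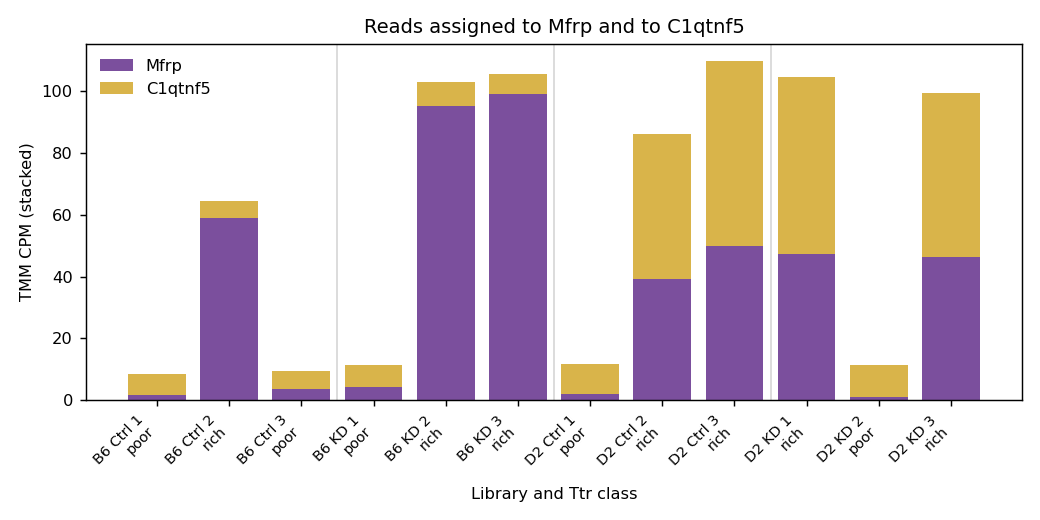
Stacked bars of TMM-scaled CPM assigned to Mfrp (purple) and to C1qtnf5 (yellow) in each library, with the Ttr class under each name. In rich B6 libraries nearly all of the stack is Mfrp (58.9 to 99.2 CPM) and in rich D2 libraries C1qtnf5 (47.1 to 59.9 CPM) is as tall as Mfrp, whereas poor libraries of both strains are low.

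Between strains, averaged over treatments and with no Ttr term, 0 of the 47 list genes passed the quasi-likelihood test of edgeR (adjusted p under 0.05), although 21.3% of all genes did. With Ttr class as a term 7 of 47 did, against 20.9% of all genes: Sostdc1, Prlr, Igf2, Lbp and Col8a1 were higher in D2 and Mfrp and Cab39l lower. Per 1000 excess Ttr reads, however, Igf2 (ratio of B6 to D2 1.26), Lbp (1.14) and Col8a1 (1.09) were on average higher in B6. The class term separates only rich from poor libraries. Among the rich ones, which the rule chose by Ttr, Ttr itself had a log2 difference of 0.47 (D2 minus B6). With the class term over all 12 libraries, Mfrp differed by a log2 of -0.88 (edgeR adjusted p = 0.0068), against -0.28 (edgeR adjusted p = 0.904) without the term. C1qtnf5 differed by 2.07 (edgeR adjusted p = 0.0066) with the term. Sostdc1 differed by 0.66 (edgeR adjusted p = 0.0071) and Wdr86, outside the lists, by -1.12 (edgeR adjusted p = 0.00018). Among the 240 genes, 8 passed without the term and 36 with it. In the 7 rich libraries alone, of which 1 is B6 Ctrl, the D2 minus B6 log2 difference was 0.98 for Sostdc1 and 0.63 for Prlr. It was 0.22 for Igf2, 0.41 for Lbp, 0.39 for Col8a1, -0.70 for Mfrp and -0.11 for Cab39l.

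Treatment estimates of choroid plexus genes were largest in B6, where 2 of 3 KD and 1 of 3 Ctrl libraries were rich. There the median KD minus Ctrl log2 difference of the 47 genes was 1.59 without a Ttr term and 0.47 with Ttr class. In D2, where 2 of 3 libraries of each treatment were rich, it was 0.13 and 0.02. The class term separates only rich from poor libraries. Among the rich B6 libraries, Ttr was higher by a log2 of 0.75 in the 2 KD libraries than in the 1 Ctrl library. No list gene passed the test without the term, in B6 or averaged over strains. Ttr itself differed by 1.69 in B6 (edgeR adjusted p = 0.646). A difference of this size was not separable from the spread between mice.

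Over all genes, KD minus Ctrl in B6 called 418 genes (2.64%) without the term and 1 with Ttr class, while the number at an unadjusted p under 0.05 went from 3262 to 2997. None of the 240 genes was among the 418, and 0 of the 418 remained called. The smallest edgeR adjusted p in B6 was 0.0326 before and 0.0312 after, so the calls sat just under the threshold. Leaving out 1 library moved the 418 to between 0, as without B6 Ctrl replicate 1 or 3, B6 KD replicate 1 or 2 or D2 Ctrl replicate 1, and 790, as without B6 KD replicate 3. The 1 gene called with the term was Sulf1 of the structural list, with a log2 difference of 1.19 (edgeR adjusted p = 0.0312). It had 10.6, 12.4 and 42.9 CPM in B6 Ctrl libraries and 28.7, 89.6 and 92.8 in B6 KD libraries. The highest Ctrl value was that of the rich library. With log2 Ttr CPM as the term instead of the class, edgeR called 0 genes in B6. Averaged over strains, edgeR called 0 genes (0%) with and without the term (3046 at an unadjusted p under 0.05 without it, 2922 with it). Of 15853 genes DESeq2 called, averaged over strains, 1241 without a Ttr term (0 list genes) and 1113 with Ttr class (9 of the 47 list genes). In B6 it called 1688 without a Ttr term (0 list genes) and 1421 with Ttr class (11 list genes). Without the library labelled D2 KD replicate 3, and with no Ttr term, edgeR called 799 genes averaged over strains and 673 in B6, of which 0 were list genes.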

How the data were processed

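Expected counts per gene were deposited by the authors, who filtered and trimmed reads, aligned them to the C57BL/6J or DBA/2J genome by strain, and estimated counts with RSEM 1.2.12 and Bowtie2 2.2.0 (submitters' processing notes, which name GRCm38 and mm10); they are not normalized. Per the series text, identical barcodes in the initial run led to a repeat run, joined with it for most libraries. Strand handling was not given in the sources used here, and 11 of the 47 choroid list genes overlap another coding gene (GENCODE M21). The authors' normalized counts were not used.

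Counts of 22236 genes were rounded, 27 symbols turned into dates were restored from Ensembl identifiers, and filterByExpr kept 15853. edgeR 4.0.16 in R 4.3.3 (TMM, glmQLFit robust) fitted 4 group means. Adding Ttr class gave the rich minus poor log2 difference, for which no p was taken. KD minus Ctrl and D2 minus B6 were tested by glmQLFTest, Benjamini-Hochberg adjusted over all genes, threshold 0.05. Rich minus poor differences within a strain are log2 ratios of mean CPM + 0.5, with treatments pooled. SDs within groups are on log2(CPM + 0.5).

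Named were the list genes and, outside the lists at a mean of at least 1 CPM, the 20 largest higher and 10 largest lower genes without overlap. The 10 most Ttr-like genes at that mean were taken with no condition on overlap. The libraries, lists and rules were chosen with earlier results of these data known. Fits were tested on simulated data. Totals of 18.2 M to 39.4 M expected counts make counting error small beside the spread between mice, except at a few counts. Alternatives were DESeq2 1.42.0, its size factors, no filter, other thresholds, designs and folds, Ttr terms and leaving out each library. RefSeq promoters matched 37 of 47 list genes.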

Additional observations from a re-analysis of the deposited data

Results flagged for a closer look

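Within the 7 rich and the 5 poor libraries, the gap of the lowest or highest library to its neighbour was checked for the list genes and the sums of their lists. It passed Dixon's limit in 5 of 108 checks (4.63%), where chance flags about 1 in 20, and the checks are not independent. In B6 Ctrl replicate 2, the rich library with the least Ttr, the summed regulators lay at 73.6 CPM against 116 in the next library, Slc4a5 at 30.3 against 49.5 and Prlr at 42.4 against 75.5. Igf2 lay at 246 CPM (246.5) in B6 KD replicate 2 against 321.5 in the next rich library. Slco1a5, an organic anion transporter gene, lay at 1.05 CPM in B6 KD replicate 1 against 0.289 in the next poor library. No strain by treatment interaction passed for the 77 named choroid and Ttr-tracking genes (smallest edgeR adjusted p = 0.876).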

How the results depend on the processing

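Of 1292 alternative values for single named genes, 1263 moved by less than the spread between replicates, 29 moved by more and 0 changed sign. The genes outside the lists were named for the size of their difference in these same libraries, so the lack of sign changes is not read further. Leaving out each library in turn gave a Ttr log2 difference of 5.04 to 5.78, 235 to 283 higher and 1 to 6 lower genes, 43 to 44 list genes past 2-fold and Fisher exact p-values of 0.545 to 1 for both labels. It gave 2916 to 3686 genes between strains (0 to 1 list genes), 0 to 790 for KD in B6 and 0 to 799 averaged over strains (0 list genes in both). For KD in B6 the count was 0 without B6 Ctrl replicate 1 or 3, B6 KD replicate 1 or 2 or D2 Ctrl replicate 1, 237 without B6 Ctrl replicate 2, 790 without B6 KD replicate 3, 45 without D2 Ctrl replicate 2, 124 without D2 KD replicate 1 and 673 without the library labelled D2 KD replicate 3. Averaged over strains it was 1 without B6 Ctrl replicate 2, 400 without B6 KD replicate 3, 326 without D2 Ctrl replicate 3 and 799 without the library labelled D2 KD replicate 3. The cause was not tested.

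Higher genes numbered 147 at 3-fold. Lower genes numbered 5 with no filter, 0 with Ttr class alone, 8 at 1.5-fold and 0 at 3-fold. For KD in B6, genes called were 1 with Ttr class, 0 with log2 Ttr, 1688 with DESeq2, 1421 with DESeq2 and Ttr class and 0 in rich libraries alone, where the lone Ctrl library is assumed to vary like the rest. Averaged over strains DESeq2 called 1241, and 1113 with Ttr class. List genes called were 1 for KD in B6 with Ttr class. Between strains they were 7 with Ttr class, 8 with log2 Ttr and 4 in rich libraries alone, which called 1343 genes in all. DESeq2 with Ttr class called 9 list genes averaged over strains, among 1113 of all 15853 genes. It called 11 among 1421 for KD in B6 and 9 among 3871 between strains. The DESeq2 fit with a Ttr term and the fits of rich libraries alone were chosen after seeing the data. Thresholds of 500 and 2000 gave the same libraries and are not counted among the 1292 values. No paired analysis was possible because replicate numbers were given in order of deposit and pair no mice. With 5 poor libraries, of which 2 are D2, low levels are known least well.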

Other observations

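Variation within groups that remained after fitting Ttr class was also present. Of the 50 most variable genes at a mean of at least 1 CPM, 39 were higher in rich libraries without overlap. Over all genes tested the share was 3.15%. Each group held both classes, so the SD used for this ranking includes the difference between them. Amd1, a gene of polyamine synthesis, and Gdf1, a growth factor gene, stayed variable with the class fitted. The SD within groups of log2(CPM + 0.5) was 2.19 for Amd1 and 2.00 for Gdf1, and 2.13 and 1.88 once Ttr class was fitted. Their rich minus poor log2 differences were -0.78 and -1.76, both with overlap, and that of Gdf1 was the lowest of all genes tested.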
